A study of Mus musculus with 9 samples.

Results

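Brain endothelial cells of APP_PS1xRIPK1KD mice were compared with those of WT mice across all genes of the deposited count matrix. The comparison used the 3 libraries labelled APP/PS1xRIPK1KD and the 3 labelled WT, 6 of the 9 libraries in the study, and the matrix held 23420 genes, of which 13317 had enough counts to be tested. All mice were C57BL/6, 6 months old and labelled male. WT mice are labelled with no transgene. APP_PS1xRIPK1KD mice, called the compound genotype from here on, carry the APP/PS1 transgenes together with an alteration of Ripk1 that the labels abbreviate as KD, and the sources used here give neither the meaning of KD nor the promoters that drive the transgenes. The compound genotype therefore differs from WT in both, and their parts in a difference cannot be told apart in this comparison. For this reason the level in the third genotype, APP_PS1, which carries the transgenes alone, is printed for some of the genes. Where APP_PS1 is left out, the values are WT against the compound genotype, and APP_PS1 may stand near either. Brain homogenate had been sorted for cells with CD31, found on endothelium, and without CD45, found on leukocytes, at 20000 cells per library, and amplified with Smart-seq2, a protocol that copies polyadenylated RNA and keeps no strand information. Nothing in the labels says that the libraries of a genotype came from animals of separate litters or days, so the p-values measure only the spread between these libraries.

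The endothelium of brain capillaries forms the blood-brain barrier. Its cells are joined by tight junctions, carry dedicated transporters for glucose and amino acids, take up little by vesicles and share a basement membrane with pericytes. APP/PS1 mice carry transgenes that drive amyloid production and deposit amyloid in the brain, partly along vessels. RIPK1 is a kinase of the receptor complex of tumour necrosis factor: as a scaffold it passes the signal on to NF-kB, and as an active kinase it can start caspase-dependent death or, through RIPK3 and MLKL, the lytic form of cell death called necroptosis.

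All libraries had a strong endothelial profile. Cldn5, the main claudin of brain tight junctions, stood at 7769.9, 5856 and 6857 CPM (counts per library size, scaled by TMM factors) in the WT libraries and at 8274, 6951 and 7725 in those of the compound genotype, and Pecam1, which encodes CD31, at 1234, 1075 and 1183 against 1208, 1189 and 1231. The libraries of the comparison held between 38175951 and 50892258 expected counts, and a count of 0 allows up to 0.0540 to 0.0885 CPM, taking 3 counts as the floor, for counting error only. WT replicate 3 stood apart from the other WT libraries in antigen presentation, interferon and venous genes: Cd74, the class II invariant chain, reached 356 CPM there against 6.10 and 6.54. Results on these genes are therefore given with and without it. Although all mice were labelled male, replicates 1 and 2 of each genotype carried Xist, the RNA that silences an X chromosome in female cells, and replicate 3 of each carried Y-linked transcripts, so this split was balanced between the genotypes. The ribosomal RNA precursor Rn45s took 33.8%, 33.4% and 29.6% of the counts in WT and 26.4%, 22.3% and 20.2% in the compound genotype (exact permutation p = 0.1, the smallest that 3 libraries against 3 can give).

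Ripk1 itself was transcribed in every library. It stood at 45, 48.1 and 34.9 CPM in WT, at 75.3, 52.9 and 40.9 in APP_PS1 and at 31.4, 44.9 and 35.5 in the compound genotype, and the libraries of WT and the compound genotype overlapped (log2 fold change -0.20 ± 0.23 SE, FDR 0.986). The count at the gene does not show whether the encoded protein differs. Mouse App stood at 2174, 1871 and 2221 CPM against 1812, 2026 and 2069, overlapping. The sources used here do not say whether reads of the transgenes could be counted at this gene.

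Compared with WT, sorted endothelial cells of the compound genotype had 5 transcripts past the threshold of the edgeR quasi-likelihood test, a false discovery rate (FDR) of 0.05 over all genes tested. That is 0.0375% of the genes tested, with 2 higher (0.015%) and 3 lower (0.0225%). Tmem252 and Kbtbd11 fell to less than their WT range in every library, the long non-coding RNA 2610035D17Rik was not counted in any library of the compound genotype, and the pericyte ATPase Atp13a5 rose from near the floor. At an unadjusted p under 0.05 stood 396 genes higher (2.97% of genes tested) and 427 lower (3.21%), 823 in all (6.18%), where 666 would be expected by chance. The libraries did not overlap for 806 genes on the higher side (6.05%) and 798 on the lower (5.99%), 12% in all. Fold changes were above 0 for 50.6% of genes and below for 49.4%. DESeq2, run on the same libraries, called 29 higher (0.218%) and 33 lower (0.248%). The counts depended on single libraries. Higher calls numbered 0 without WT replicate 1 or 2, 1 without replicate 1 or 3 of the compound genotype and 4 without its replicate 2. Lower calls numbered 1 without replicate 1 of the compound genotype, and 5 without its replicate 2 or without WT replicate 3.

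**Figure D1:**
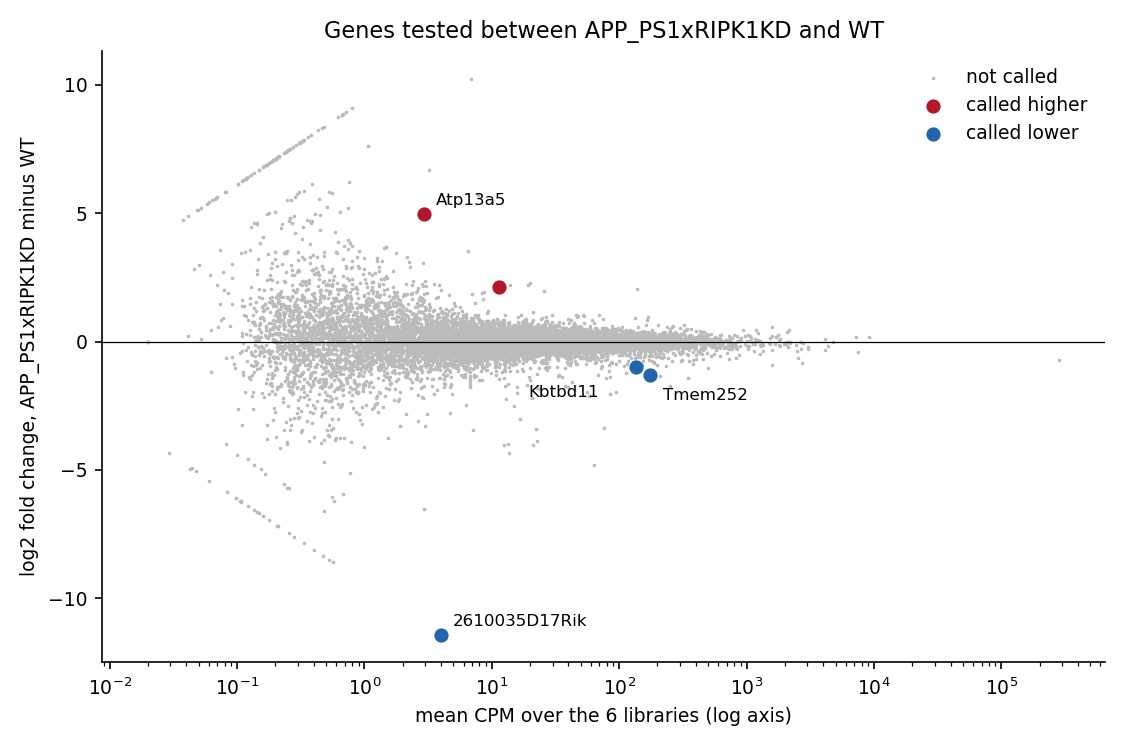
Log2 fold change of the compound genotype against WT (vertical axis) by mean CPM over the 6 libraries (horizontal log axis) for the 13317 genes tested, with the 5 called genes as large coloured points, 4 of them named. The fitted fold change of 2610035D17Rik rests on 0 counts in the compound genotype and is no estimate of size.

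Tmem252 encodes a transmembrane protein and lies on chromosome 19 from 24674008 to 24682233, plus strand (GENCODE M21, GRCm38). It stood at 276, 232 and 244 CPM in the WT libraries and at 98.9, 94.8 and 107 in those of the compound genotype. The highest library of the compound genotype lay well under the lowest of WT, and the spread within each genotype was small. The transcript fell 2.5-fold (log2 fold change -1.32 ± 0.15 SE, FDR 0.00696). The 3 APP_PS1 libraries, at 129, 168 and 122 CPM, lay between the other genotypes. Without replicate 1 of the compound genotype the FDR was 0.0675.

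Kbtbd11, a member of the family of proteins with BTB and kelch domains, lies on chromosome 8 from 15011025 to 15033333, plus strand. Its level was 169, 200.5 and 177 CPM in WT and 86, 102 and 84.2 in the compound genotype, without overlap. It fell 2.01-fold (log2 fold change -1.01 ± 0.13 SE, FDR 0.0122). In APP_PS1 the libraries held 117, 109.6 and 102 CPM, and the lowest of them touched the range of the compound genotype. This call was the least secure of the lower ones: the FDR was 0.0553 without WT replicate 1, 0.0651 without WT replicate 2, 0.124 without replicate 1 and 0.153 without replicate 3 of the compound genotype.

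The long non-coding RNA 2610035D17Rik is encoded on chromosome 11, minus strand, between 113043895 and 113201838. It stood at 9.44, 11.8 and 2.61 CPM in WT, from 122 to 448 counts per library, at 10.7, 4.3 and 9.34 CPM in APP_PS1 and had 0 counts in each compound library (FDR 0.00696). The FDR was 0.612 with limma-voom and 0.0623 with the 6 libraries alone. With 3 counts taken as the floor of each library, and the mean of these floors as the limit, the WT mean of 7.95 ± 4.77 CPM (SD, n = 3) makes it at least 129.9-fold lower. The promoter of this RNA, the one called transcript with no counts in a genotype, is shown from RefSeq (GRCm38.p6, 250 bases before to 50 after the start), chr11:113201789-113202088, minus strand. Capitals mark CCAAT, searched on both strands, which 37.41% of the 32851 RefSeq promoters of this length hold:
2610035D17Rik: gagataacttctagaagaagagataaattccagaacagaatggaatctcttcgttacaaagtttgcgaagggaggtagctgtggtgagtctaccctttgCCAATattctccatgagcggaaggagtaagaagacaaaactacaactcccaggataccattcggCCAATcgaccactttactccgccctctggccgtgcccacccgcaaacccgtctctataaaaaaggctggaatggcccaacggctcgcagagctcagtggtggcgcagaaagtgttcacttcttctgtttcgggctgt

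To show whether the absence of counts extended along the chromosome, the nearest 3 genes on each side with a mean of at least 1 CPM were looked up after the value of the RNA had been seen. Sox9, the nearest on the lower side and a transcription factor of astrocytes and of cartilage, stood at 2.24, 3.00 and 1.16 CPM in WT and at 0.387, 0.753 and 0.432 in the compound genotype, without overlap (log2 fold change -2.02 ± 0.70 SE, FDR 0.662). Slc39a11, a zinc transporter and the nearest on the upper side, stood at 11.5, 9.99 and 7.49 CPM against 6.10, 5.77 and 1.91, also without overlap (-1.07 ± 0.44, FDR 0.764). Neither passed the threshold, and Map2k6, Kcnj2, Cog1 and Fam104a overlapped between the genotypes. All 6 neighbours were counted in every library, so the 0 counts were seen at the RNA and not at these neighbours.

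**Figure D2:**
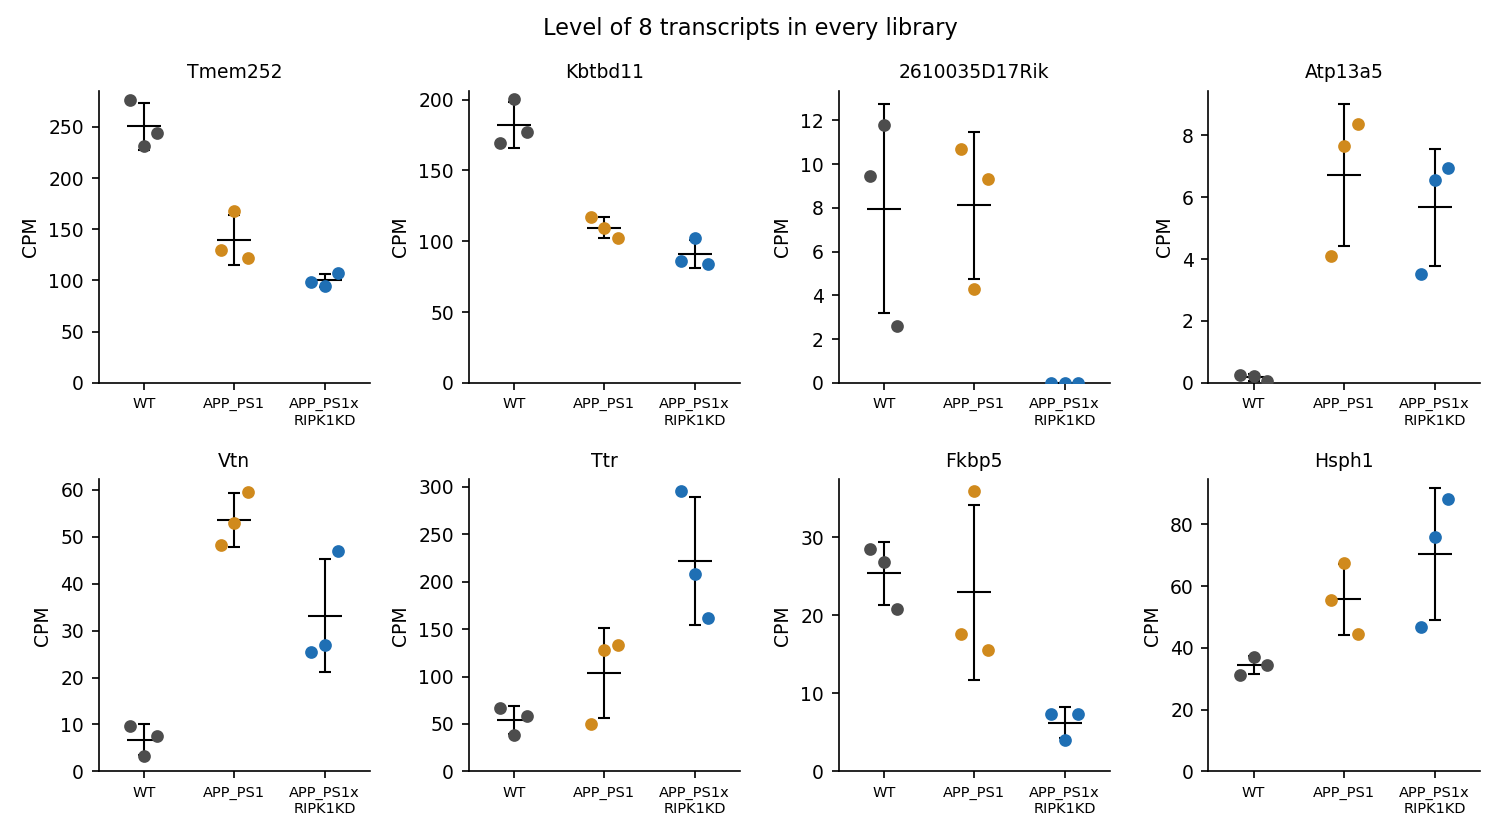
CPM of 8 transcripts (vertical axes, from 0) in each of the 9 libraries, with points for libraries and bars for the mean ± SD over 3 libraries of a genotype. WT and the compound genotype do not overlap in any of the 8 panels, and 2610035D17Rik is at 0 throughout the compound genotype.

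Transcripts of pericytes and smooth muscle, the mural cells around the endothelium, stood above WT in the sorted cells of the compound genotype. Atp13a5, a P5-type ATPase of brain pericytes encoded on chromosome 16, minus strand, between 29231851 and 29378732, stood at 0.265, 0.211 and 0.0642 CPM in WT and rose to 3.51, 6.55 and 6.94 CPM, 31.6-fold (log2 fold change 4.98 ± 0.64 SE, FDR 0.0122). It stood at 4.09, 7.66 and 8.36 CPM in APP_PS1. The FDR was 0.0553 without WT replicate 1, 0.0545 without WT replicate 2 and 0.0667 without replicate 3 of the compound genotype. Vtn, the matrix glycoprotein vitronectin, which brain pericytes secrete, missed the threshold by a little, at 9.64, 3.24 and 7.47 CPM against 25.5, 26.9 and 47 (log2 fold change 2.29 ± 0.36 SE, FDR 0.0501), with 48.1, 52.9 and 59.5 CPM in APP_PS1. DESeq2 called Vtn (adjusted p = 5.46e-08).

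Of the 16 mural markers, all tested, 14 had a fold change above 0, 1 was called, 9 had an unadjusted p under 0.05 on the higher side and 0 on the lower, and 9 lay above WT without overlap. Of all genes tested, 2.97% and 6.05% did on the higher side. Their median log2 fold change was 2.08, against 0.00314 over all genes tested. Kcnj8, a pericyte potassium channel, stood at 0.796, 0.553 and 0.278 CPM against 3.39, 1.78 and 6.85, and Rgs5, which dampens G protein signals in pericytes, at 6.4, 1.61 and 6.93 against 12.9, 24.7 and 31.7. The contractile genes of smooth muscle overlapped: Acta2 stood at 18.8, 1.13 and 11.7 CPM against 4.85, 21.5 and 96.6 and Myh11 at 8.67, 0.0527 and 3.77 against 0.571, 7.16 and 31.1, with replicate 1 of the compound genotype in the WT range and its replicate 3 far above it. Cspg4 and Anpep, on the other side of 0, overlapped as well. Summed over the list, mural transcripts came to 61.1, 14.5 and 42.8 CPM in WT, 192, 248 and 204 in APP_PS1 and 71.7, 121 and 268 in the compound genotype (exact permutation p = 0.1 for WT against the compound genotype, the smallest possible). Without replicate 3 of the compound genotype, 13 of 16 were above 0 with a median of 1.76, and none was called. More mural cells in the sort and more RNA per mural cell cannot be told apart in these bulk libraries.

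Choroid plexus transcripts showed the same side. Ttr, transthyretin, the main secreted protein of the choroid plexus and a carrier of thyroid hormone, stood at 66.5, 38.3 and 58.1 CPM in WT, 49.5, 128 and 134 in APP_PS1 and 295, 208 and 162 in the compound genotype. Every library of the compound genotype lay above every other library of the study (against WT: log2 fold change 2.03 ± 0.37 SE, FDR 0.251, DESeq2 adjusted p = 1.04e-07). Kcnj13, a potassium channel of the choroid plexus, stood at 0.206, 0.184 and 0.235 CPM against 3.14, 1.87 and 3.21, and Kl, the FGF co-receptor klotho, at 1.24, 0.237 and 2.22 against 4.12, 8.87 and 4.54, both without overlap. In APP_PS1 Kcnj13 stood at 0.818, 6.5 and 0.616 CPM. Of 13 markers 9 were tested, 8 of them above 0, 4 with an unadjusted p under 0.05 on the higher side and 5 without overlap, with a median of 2.03, where 2.97% and 6.05% of all genes were. Without replicate 3 of the compound genotype the median was 1.52. The summed level was 265, 225 and 208 CPM in WT, 222, 377 and 301 in APP_PS1 and 532, 414 and 396 in the compound genotype (exact permutation p = 0.1 for WT against the compound genotype). Enpp2, an enzyme that brain endothelium also expresses, carried much of it, at 173, 166 and 142 CPM in WT against 209, 181 and 208 in the compound genotype. Otx2, Foxj1, Ccdc153 and Tmem212, which define choroid and ependymal cells, had too few counts to be tested.

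**Figure D3:**
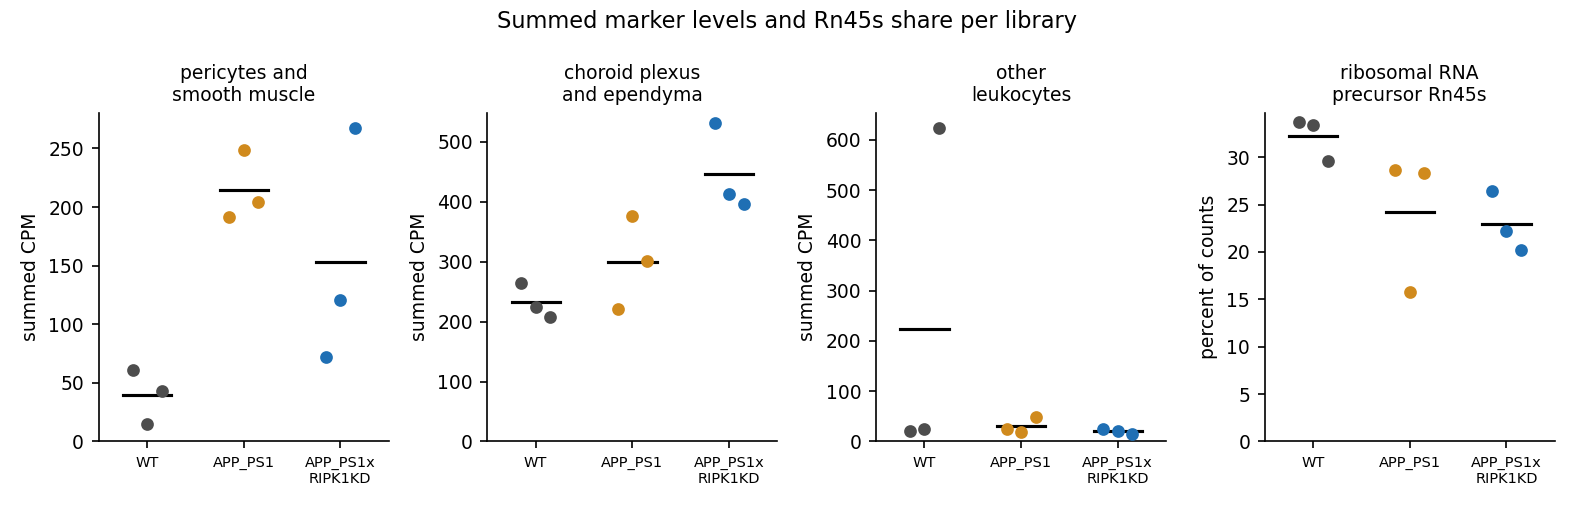
Summed CPM of the markers of mural cells, choroid plexus and other leukocytes, and the share of Rn45s in percent of counts, in every library (points, bars at the mean of a genotype, axes from 0). The mural and choroid sums of the compound genotype lie above those of WT, 1 WT library stands alone at 623 CPM in leukocyte markers, and the Rn45s share lies below WT.

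Heat shock genes, which encode chaperones and their partners and are driven by heat shock factor, were on the higher side as a group, with none called. Of 20 members, all tested, 16 were above 0 and 13 lay above WT without overlap, against 6.05% of all genes. On the higher side 7 had an unadjusted p under 0.05 (2.97% of all genes), and on the lower side 1 (3.21%). The median log2 fold change was 0.46. Hsph1, a nucleotide exchange factor of the Hsp70 family, stood at 31.4, 37.2 and 34.4 CPM in WT, 55.4, 67.5 and 44.4 in APP_PS1 and 46.6, 75.9 and 88.2 in the compound genotype (against WT: 1.03 ± 0.23 SE, FDR 0.315), and DESeq2 called it (adjusted p = 0.00997). The Hsp90 genes were on that side as well: Hsp90aa1, the inducible form, stood at 233, 261 and 258 CPM against 304, 357 and 509, and Hsp90ab1, the constitutive form, at 988, 986 and 1017 against 1142, 1309 and 1681. Among their cochaperones, Fkbp4 stood at 198, 253 and 180.2 against 283, 269 and 325, Stip1 at 63.7, 78 and 53.1 against 81.5, 78.9 and 118 and Chordc1 at 38.8, 63.2 and 58.8 against 64.7, 76.4 and 93.4, all without overlap. In each of these 6 genes replicate 3 of the compound genotype held the highest value of that genotype. Without it, 16 members were above 0 with a median of 0.31, and 3 had an unadjusted p under 0.05 on the higher side (2.86% of all genes). In the libraries with Xist the median was 0.26. Hspa1a and Hspa1b are near-identical, so their counts are uncertain. In APP_PS1 the median against the same WT libraries was 0.51, and Hsp90aa1 stood at 430, 531 and 335 CPM.

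Bag3, a cochaperone that hands clients to autophagy, was the member on the lower side with an unadjusted p under 0.05. It stood at 111, 110.3 and 64.3 CPM in WT, 74.8, 59 and 71.5 in APP_PS1 and 52.7, 72.7 and 66.3 in the compound genotype, below 0 at -0.58 ± 0.21 SE (unadjusted p = 0.0168 in edgeR, FDR 0.69), with WT replicate 3 in the range of the compound genotype. The promoters of Hsph1, Chordc1 and Bag3 are shown because these genes share the binding unit of heat shock factor and stood on different sides. They are from RefSeq on GRCm38.p6: chr5:149636287-149636586, minus strand, for Hsph1, chr9:18292017-18292316, plus strand, for Chordc1, and chr7:128523333-128523632, plus strand, for Bag3. Capitals mark the palindromic units GAANNTTC and TTCNNGAA, which can overlap each other:
Hsph1: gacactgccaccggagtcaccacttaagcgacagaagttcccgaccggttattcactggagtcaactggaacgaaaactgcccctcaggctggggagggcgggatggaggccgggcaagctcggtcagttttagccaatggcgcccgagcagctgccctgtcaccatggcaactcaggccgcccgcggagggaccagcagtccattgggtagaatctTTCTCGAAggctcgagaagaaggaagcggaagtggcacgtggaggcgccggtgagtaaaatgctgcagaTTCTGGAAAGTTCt
Chordc1: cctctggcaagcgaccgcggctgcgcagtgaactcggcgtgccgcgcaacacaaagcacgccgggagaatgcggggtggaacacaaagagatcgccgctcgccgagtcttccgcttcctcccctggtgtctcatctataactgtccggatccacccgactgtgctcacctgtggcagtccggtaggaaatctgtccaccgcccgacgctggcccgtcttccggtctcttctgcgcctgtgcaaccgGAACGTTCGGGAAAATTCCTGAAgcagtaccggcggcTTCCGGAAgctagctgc
Bag3: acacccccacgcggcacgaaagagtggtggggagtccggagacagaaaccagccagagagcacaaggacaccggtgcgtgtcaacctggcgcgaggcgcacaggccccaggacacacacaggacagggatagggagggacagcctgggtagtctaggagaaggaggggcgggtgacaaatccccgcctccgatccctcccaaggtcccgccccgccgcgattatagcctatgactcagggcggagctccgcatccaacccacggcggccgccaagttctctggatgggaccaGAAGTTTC
The scan found 3 units in Hsph1, 5 in Chordc1 and 1 in Bag3. Of the 17 heat shock members with a promoter in the RefSeq table, 12 held at least 1 such unit, in 13 of their 23 windows (56.52%), while 15.06% of all 32851 promoters did. The units are matches of letters and were not tested as binding sites.

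Targets of the glucocorticoid receptor were on the lower side. Of 20 members, all tested, 16 were below 0 and 5 lay below WT without overlap, where 5.99% of all genes did. On the lower side 8 members had an unadjusted p under 0.05 (3.21% of all genes), and on the higher side 0 (2.97%). Their median was -0.51, with -0.18 for APP_PS1 against the same WT libraries. Fkbp5, a chaperone of the glucocorticoid receptor and among its best known targets, stood at 28.5, 26.9 and 20.9 CPM in WT, 17.6, 35.9 and 15.5 in APP_PS1 and 7.4, 4.02 and 7.39 in the compound genotype. All libraries of the compound genotype lay below the other 6 of the study (-2.02 ± 0.35 SE, FDR 0.117), and DESeq2 called it (adjusted p = 3e-05). Map3k6, a stress-activated kinase, stood at 231, 203 and 158 against 98, 93.9 and 122 CPM, Klf9, a transcription factor, at 254, 269 and 183 against 154, 155 and 151, and Sult1a1, a sulfotransferase, at 154, 175 and 165 against 100.1, 66 and 110.4, each without overlap and each called by DESeq2 (adjusted p = 0.00234, 0.0372 and 0.0431). Tsc22d3, which encodes the glucocorticoid-induced leucine zipper protein, overlapped at 943, 1406 and 678 CPM against 532, 607 and 776, and Sgk1, a kinase induced by the hormone, at 190.4, 235 and 105 against 179, 166 and 144. Pdk4, a mitochondrial kinase, lay above WT at 11, 9.75 and 8.56 CPM against 14, 17.1 and 12.9. WT replicate 3 was often the lowest WT library of these genes. Without it 16 members were below 0 with a median of -0.71, and 13 had an unadjusted p under 0.05 on the lower side (3.18% of all genes).

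Clock genes were read alongside, since Per1 belongs to both lists. All 11 genes of the Dbp phase, the output of the circadian clock driven by E-boxes, were below 0 with a median of -0.88 (10 of 11 without WT replicate 3). Yet none was free of overlap, where 5.99% of all genes were on the lower side. An unadjusted p under 0.05 was found for 2 (3.21% of all genes on that side). Dbp itself, a transcription factor of clock output, stood at 14.5, 219.9 and 131 CPM in WT, 218, 24.1 and 103 in APP_PS1 and 11.2, 43.7 and 86.8 in the compound genotype, so the range within WT was wider than the difference between the means. Per1, a repressor of the clock, stood at 179.8, 262 and 99.1 CPM against 82, 94 and 104 (-0.95 ± 0.30 SE, FDR 0.64). Arntl, of the opposite phase, ranged from 73.9, 10.4 and 31.4 CPM in WT to 83.3, 47.9 and 29.6 in the compound genotype. The sources used here give no hour at which the mice were killed, and its part in these lists was not tested. Fkbp5 and Per1 are shown with their promoters, from RefSeq on GRCm38.p6, chr17:28486100-28486399, minus strand, and chr11:69098699-69098998, plus strand. Capitals mark the E-box CACGTG, held by 7.15% of the 32851 promoters and by 3 of the 9 Dbp-phase genes in the table:
Fkbp5: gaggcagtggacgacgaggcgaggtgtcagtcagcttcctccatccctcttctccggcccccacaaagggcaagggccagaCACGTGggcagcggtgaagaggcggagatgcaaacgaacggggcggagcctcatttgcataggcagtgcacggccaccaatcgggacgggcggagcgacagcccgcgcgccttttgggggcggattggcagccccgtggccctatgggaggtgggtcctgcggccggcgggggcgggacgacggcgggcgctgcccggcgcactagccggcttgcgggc
Per1: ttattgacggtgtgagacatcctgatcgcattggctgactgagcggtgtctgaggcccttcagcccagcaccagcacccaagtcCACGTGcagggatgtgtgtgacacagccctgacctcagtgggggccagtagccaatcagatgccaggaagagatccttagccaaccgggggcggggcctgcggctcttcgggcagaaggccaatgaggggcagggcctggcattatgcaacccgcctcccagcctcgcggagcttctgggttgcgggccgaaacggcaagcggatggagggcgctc
The E-box stands 169 bases before the RefSeq start in Fkbp5 and 166 in Per1. These starts lie 31378 and 3732 bases from the starts of the GENCODE genes, and the Per1 window is 1 of 2 in the table. The extended glucocorticoid element, searched by its consensus on both strands, was in neither window, and 0.0091% of all promoters hold it.

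**Figure D4:**
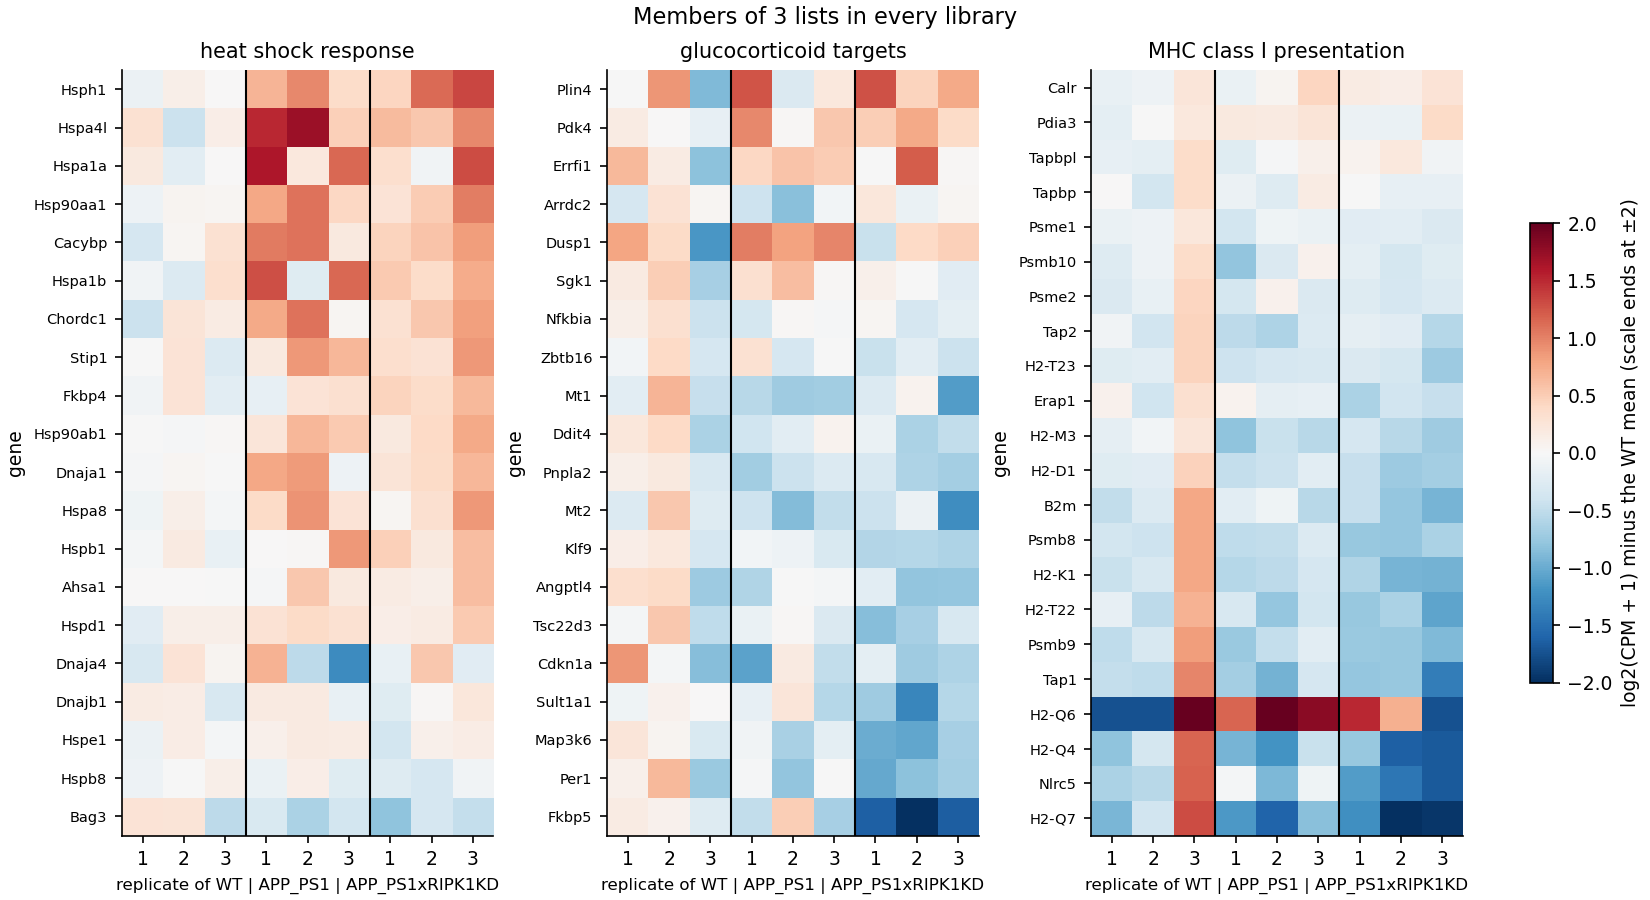
Members of the heat shock, glucocorticoid and MHC class I lists (rows, ordered by fold change) in every library (columns, grouped by genotype), coloured by log2(CPM + 1) minus the WT mean, with red above and blue below. Chaperones are red in most libraries of the compound genotype, Fkbp5 is dark blue in all 3, and in the MHC class I panel WT replicate 3 is red against both other WT libraries.

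Antigen presentation by MHC class I, the display of peptides to CD8 T cells, was on the lower side, with a smaller difference once WT replicate 3 was set aside. Of 22 members, all tested, 19 were below 0, 13 had an unadjusted p under 0.05 on the lower side and 11 lay below WT without overlap, with a median of -0.60 and 0 called. Over all genes these shares were 3.21% and 5.99%. Without WT replicate 3, 17 were below 0 and the median was -0.33. On the lower side 6 then had an unadjusted p under 0.05 (3.18% of all genes), and on the higher side 1 (3.23%). In that setting 11 lay below WT without overlap, where 12.1% of all genes did. H2-D1, a classical class I heavy chain, stood at 2581, 2594 and 4193 CPM in WT, 2173, 2265 and 2638 in APP_PS1 and 2215, 1842 and 1906 in the compound genotype. H2-K1, the other classical heavy chain, stood at 1417, 1546 and 3289 against 1273, 1018 and 1006 CPM. Nlrc5, the transactivator of class I genes, stood at 30.5, 32.4 and 109 against 21.4, 16.9 and 14.3 CPM (-1.71 ± 0.47 SE, FDR 0.563), and DESeq2 called it (adjusted p = 0.0105). These 3 genes lay below WT in every library, also with WT replicate 3 set aside, while B2m, the light chain, overlapped at 2282, 2676 and 5495 against 2343, 1886 and 1695 CPM. The H2-Q genes are near-identical copies among which reads may be split, so H2-Q7, at 57.3, 83.3 and 269 against 46.2, 24.7 and 27.5 CPM, is uncertain.

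In the same WT library, other lists stood apart. Markers of other leukocytes, of which class II genes are part, summed to 21.5, 24.5 and 623 CPM in WT and to 24.9, 20.3 and 15.3 in the compound genotype, and the pan-leukocyte gene Ptprc and the T cell genes Cd3e and Cd3d had too few counts to be tested. Whether these cells had a part in the class I levels was not tested. Of 25 interferon-stimulated genes tested, 20 were below 0 with a median of -0.17, but without WT replicate 3 the balance turned, with 17 above 0 and a median of 0.060. Ifitm3, an antiviral membrane protein, lay below WT in all libraries at 764, 664 and 991 CPM against 604, 571 and 619.8 (-0.43 ± 0.14 SE, FDR 0.647). Zbp1, a sensor of nucleic acids that can engage RIPK3, stood at 6.34, 5.09 and 47.3 against 6.08, 7.3 and 4.49 CPM, so that its fold change of -1.72 ± 0.73 SE became 0.060 without WT replicate 3.

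Venous endothelial genes had 14 of 17 tested members below 0 with a median of -0.71, 6 of them with an unadjusted p under 0.05 and 3 without overlap, where 3.21% and 5.99% of all genes were on the lower side. Tmem252, described above, belongs to this list. Il1r1, the receptor of interleukin 1, stood at 113, 64.9 and 167 CPM in WT, 90.1, 127 and 65.7 in APP_PS1 and 33.8, 42.1 and 52.7 in the compound genotype, below WT without overlap (-1.42 ± 0.33 SE, FDR 0.419, DESeq2 adjusted p = 0.00234). Other members were highest in WT replicate 3: Lcn2, the iron carrier lipocalin, stood at 4.6, 3.53 and 110.2 CPM against 1.59, 3.103 and 2.54, Lrg1, a secreted glycoprotein of inflamed venules, at 45.3, 9.88 and 358 against 2.94, 6.84 and 30.4, and the chemokine receptor Darc at 2.68, 2.32 and 122.8 against 2.67, 2.58 and 3.49. Without that library 12 of 17 were below 0, the median was -0.22 and 2 had an unadjusted p under 0.05 on the lower side (3.18% of all genes). Vwf, the clotting factor stored by endothelium, overlapped at 574, 206 and 654 against 195, 263 and 409 CPM.

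Transcripts of cytosolic ribosomal proteins showed small differences in 1 direction. Of 57 tested, 56 were below 0, 24 lay below WT without overlap and 7 had an unadjusted p under 0.05, where 5.99% and 3.21% of all genes did. The median was -0.20, and -0.14 for APP_PS1 against the same WT libraries. Rplp1, a protein of the ribosomal stalk, had the smallest p at 284, 232 and 206 CPM against 128, 158 and 129 (-0.80 ± 0.17 SE, FDR 0.269), and DESeq2 called it (adjusted p = 0.00394). Rps24, of the small subunit, stood at 193, 180.5 and 186 against 141, 149 and 149 CPM. These transcripts have many processed copies in the genome, and read assignment among them is uncertain. Nuclear genes of the respiratory chain had a median nearer to 0, at -0.05, with 32 of 46 below 0 and 1 with an unadjusted p under 0.05. Above WT without overlap lay 2 (6.05% of all genes), and below it 6 (5.99%). Without WT replicate 3 these were 3 (11.9% of all genes) and 15 (12.1%). The share of Rn45s moved in the same direction, as given above, and its part in these levels was not tested.

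**Figure D5:**
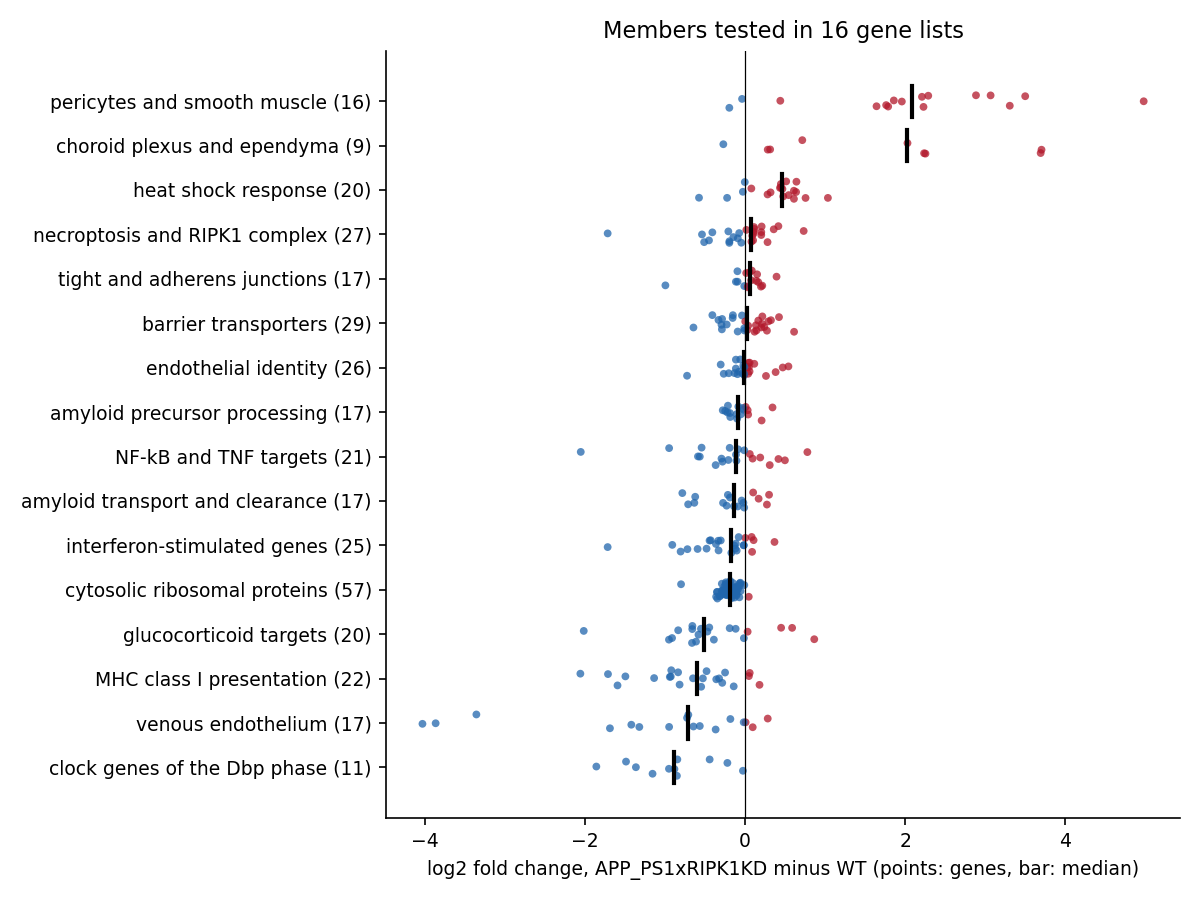
Log2 fold change of the compound genotype against WT (horizontal axis) for the tested members of 16 gene lists (rows, number tested in brackets), with red points above 0, blue points below and a black bar at the median. Mural, choroid plexus and heat shock genes lie to the right, ribosomal, glucocorticoid, class I, venous and Dbp-phase genes to the left, and barrier and RIPK1 complex genes around 0.

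Genes close to Ripk1 in function lay on both sides of WT, with none called. Of the 27 members of the RIPK1 complex and of necroptosis, all tested, 15 were above 0 and 12 below, 0 had an unadjusted p under 0.05 on the higher side and 3 on the lower, and the median was 0.08. Without overlap lay 3 above WT and 4 below. Of all genes, 2.97% and 3.21% had such a p on the higher and lower side, and 6.05% and 5.99% did not overlap. Without WT replicate 3, 0 had such a p on either side, and without replicate 3 of the compound genotype 1 had it on each. Among receptors, Tnfrsf1a, the main receptor of tumour necrosis factor, stood at 107, 113 and 157 CPM in WT, 86.3, 75.3 and 119 in APP_PS1 and 88.9, 89.4 and 80.9 in the compound genotype, below WT without overlap (-0.54 ± 0.19 SE, FDR 0.662). Tnfrsf1b, the other receptor, overlapped at 44.7, 38.7 and 84.5 against 63.3, 56.1 and 59.4 CPM. Of the ubiquitin ligase that builds linear chains on the complex, the catalytic subunit Rnf31 stood at 46.3, 54.5 and 60.03 against 35.7, 45.9 and 31.2 CPM, below WT (-0.51 ± 0.19 SE, FDR 0.706). Its partners Rbck1, at 146, 158 and 154 against 169, 153 and 140.3, and Sharpin, at 41.9, 44.9 and 44.9 against 47.7, 48.4 and 45, had fold changes near 0. Sharpin lay above WT without overlap, by a narrow margin. Ikbkg, the regulatory subunit of the IKK complex, lay above WT at 32.2, 35.6 and 35 against 48.2, 48.1 and 40.9 CPM, and Cyld, a deubiquitinase that trims the chains, at 23, 21.8 and 28.1 against 30.3, 31.8 and 31.3.

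The executioners of cell death overlapped between the genotypes. Casp8, the protease that starts apoptosis and restrains necroptosis, stood at 69.7, 69.4 and 51.7 CPM against 80.6, 67 and 71.9. Ripk3, the kinase downstream of RIPK1, was low at 6.05, 3.82 and 4.26 against 3.24, 7.85 and 5.15, and Mlkl, which perforates the membrane, stood at 14.8, 10.2 and 12.5 against 18.5, 10.8 and 10.3. Fadd, the adaptor of Casp8, lay just below WT at 17.1, 17.5 and 23.8 against 16.5, 13 and 14.4. The brake Tnfaip3 stood at 18.9, 7.27 and 14.9 CPM against 25.3, 26.2 and 16.8, overlapping, at an unadjusted p of 0.0572 in edgeR. In APP_PS1 it stood at 21.8, 32 and 16.7 CPM. Of 21 NF-kB targets tested, 14 were below 0 with a median of -0.11. On that side 1 had an unadjusted p under 0.05 (3.21% of all genes), the inhibitor Nfkbie, at 5.99, 3.14 and 8.04 against 0.816, 1.07 and 2.23 CPM. Without WT replicate 3 the balance turned, with 12 above 0, 9 below and a median of 0.037. In that setting 2 had such a p on the higher side (3.23% of all genes) and 2 on the lower (3.18%). The subunit Nfkb1 lay above WT at 34, 32.8 and 41 against 48.3, 53.7 and 41.9, and Icam1 and Vcam1, adhesion molecules for leukocytes, overlapped. Of the 70 genes within 5 Mb of Ripk1 on chromosome 13, 48 were tested, and 1 had an unadjusted p under 0.05 on the higher side and 3 on the lower, where 2.97% and 3.21% of all genes did. The N-acetyltransferase Nat2 overlapped at 3.8, 5.4 and 4.84 CPM against 3.67, 8.67 and 5.71, and Nat1 stood at 0.501, 1.45 and 0 against 0, 0.616 and 0.198.

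Barrier genes had medians near 0, with none called. Of 17 junction genes tested, 12 were above 0 with a median of 0.06, and of 29 transporters 16 were above 0 with a median of 0.03. On the higher side 1 junction gene and 1 transporter had an unadjusted p under 0.05, where 2.97% of all genes did, and on the lower side 1 and 3, where 3.21% did. Below WT without overlap lay 1 junction gene and 5 transporters (5.99% of all genes), and above it 2 and 0 (6.05%). Slc2a1, the glucose transporter of the barrier, stood at 8841, 8846 and 7785 CPM in WT, 7430.1, 8289 and 8386 in APP_PS1 and 6170.3, 5263 and 7742 in the compound genotype, below WT without overlap by a narrow margin (-0.41 ± 0.14 SE, FDR 0.662). Abcc4, an efflux pump, stood at 697, 609 and 620.3 against 582, 492 and 455 CPM, also below WT. Tfrc, the transferrin receptor, overlapped at 137, 223 and 265 against 312, 392 and 252. Marveld2, tricellulin, which seals the points where 3 cells meet, stood at 31.3, 27 and 47.6 against 14.5, 18.5 and 20.2 CPM, below WT, and Pard3, a polarity protein, at 26.4, 28 and 30.6 against 36.6, 42.2 and 32.7, above it. Occludin, encoded by Ocln, overlapped at 376, 411 and 374 against 384, 368 and 434, and so did Cdh5, the endothelial cadherin, at 576, 597 and 554 against 584, 645 and 566. Mfsd2a, a lipid transporter that keeps transcytosis low, stood at 215, 466 and 259 against 338, 408 and 285, overlapping, and Abcb1a, the efflux pump P-glycoprotein, at 828, 848 and 823 against 803, 792 and 748, narrowly below WT. Of 26 genes of endothelial identity, 15 were below 0 with a median of -0.01, and Ets1, an endothelial transcription factor, had the smallest p at 221, 216 and 295 CPM against 373, 399.7 and 292, overlapping.

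Among genes that make or clear amyloid, few stood out. Of 17 processing genes, 5 were above 0, and Adam10, the alpha-secretase that cuts the precursor within the amyloid stretch and also cuts Notch, lay above WT at 234, 214 and 224 CPM against 285, 285 and 283, with 318, 294 and 244 in APP_PS1 (0.34 ± 0.12 SE, FDR 0.69). Bace1, the beta-secretase, overlapped at 25.7, 31.7 and 18.2 against 24.3, 22.6 and 19.3 CPM. Of 17 transport and clearance genes tested, 13 were below 0 with a median of -0.14. Ece2, an endothelin-converting enzyme that can degrade amyloid, stood at 8.55, 9.96 and 8.26 against 3.83, 4.54 and 7.15 CPM, below WT, and Apoe, the lipid carrier, overlapped at 906, 789.7 and 838 against 587, 648 and 858. Ece2 stood at 5.16, 5.33 and 6.16 CPM in APP_PS1.

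Several single transcripts of at least 5 CPM separated the genotypes without passing the edgeR threshold. On the lower side, Chka, choline kinase, which starts the synthesis of phosphatidylcholine, stood at 106, 116 and 67.5 CPM in WT, 73.4, 67.1 and 55.6 in APP_PS1 and 30.5, 44.6 and 43.4 in the compound genotype (-1.29 ± 0.22 SE, FDR 0.0932). Galnt15, an enzyme that starts O-linked glycans, stood at 38.4, 35.7 and 39.6 against 17, 17.3 and 22.1, with 19.5, 21 and 19.4 in APP_PS1. Net1, an activator of the GTPase RhoA, stood at 376, 428 and 344 against 226, 234 and 221, and Prdm16, a transcription factor of arterial endothelium, at 97.2, 109.8 and 119.5 against 46.7, 64.3 and 62.7. Gimap4, a GTPase, stood at 31.9, 36.6 and 41.8 against 18.5, 18.6 and 14.6, Grasp, a scaffold protein, at 193, 191 and 145 against 85.5, 104 and 110.1, and Midn, midnolin, at 44.3, 33 and 28.5 against 16.4, 19.1 and 16. DESeq2 called all 7 lower, with adjusted p from 3.41e-05 (Chka) to 0.00822 (Midn).

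On the higher side, Dpysl2, a microtubule-binding protein, stood at 182, 195 and 199.6 CPM in WT, 245, 250.3 and 230.2 in APP_PS1 and 286, 271 and 292 in the compound genotype (0.56 ± 0.11 SE, FDR 0.251), a small difference with little spread. Plk2, a polo-like kinase, stood at 216, 198 and 216 against 311, 280.02 and 342. Insig1, which holds the sterol sensor in the endoplasmic reticulum and is itself a sterol-regulated gene, stood at 25.3, 26.1 and 38.7 against 54, 56.9 and 51.1, with 50.6, 49.9 and 46.1 in APP_PS1. It was the one cholesterol gene with an unadjusted p under 0.05 (2.97% of all genes on the higher side), and of 23 tested 16 were above 0 with a median of 0.22. Without replicate 3 of the compound genotype, 13 cholesterol genes were above 0 and 10 below, with a median of 0.073. Senp6, a SUMO protease, stood at 20.1, 19.2 and 20.05 against 39.9, 32.6 and 31.1, with 29.4, 35.6 and 29.5 in APP_PS1. Tmtc3, a mannosyltransferase of the endoplasmic reticulum, stood at 18.3, 19.2 and 20.3 against 30.4, 37.6 and 32.8, and Hsdl1 and Lysmd2 at 44, 35.2 and 39.4 against 76, 60.4 and 60.5 and 50.3, 47.2 and 61.5 against 104, 71 and 114. DESeq2 called these 7 higher, with adjusted p from 0.000638 (Dpysl2) to 0.0214 (Hsdl1). In APP_PS1 Hsdl1 stood at 68.6, 53.2 and 67.4 CPM and Lysmd2 at 64.9, 64.1 and 49. The pseudogene Tmem181b-ps, at 19.4, 29.9 and 41.9 against 57.3, 67.1 and 60.2 CPM, is uncertain because it shares sequence with its parent genes.

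Other signalling lists held no call. Of 20 tip and sprouting genes 14 were above 0 with a median of 0.22, with 2 of unadjusted p under 0.05 in each direction, where 2.97% of all genes had it on the higher and 3.21% on the lower side. The 2 on the higher side were Esm1 and Angpt2, and both overlapped WT. Esm1, which sprouting endothelium secretes, stood at 33, 53 and 20.2 CPM against 89.1, 79.2 and 41.3, with 17, 41.7 and 33.2 in APP_PS1 (against WT: 0.98 ± 0.41 SE). Angpt2, the ligand that loosens vessels, stood at 12.1, 12.9 and 14.9 against 22.7, 23.3 and 13.1, with 32.2, 26.7 and 24.8 in APP_PS1 (against WT: 0.57 ± 0.25 SE). The 2 on the lower side, not named here, overlapped WT as well, with log2 fold changes of -0.88 ± 0.32 and -0.67 ± 0.29 SE. Of 20 Notch genes 13 were above 0 with a median of 0.11, 2 had such a p on the higher side and 1 on the lower, and 4 lay above WT without overlap (6.05% of all genes). Their median was -0.04 without replicate 3 of the compound genotype. The receptor Notch4 stood at 225, 193 and 149 against 113, 163 and 119. Of 23 TGF-beta and BMP genes 15 were below 0, where the ligand Tgfb2 lay above WT at 61.5, 61.3 and 94.7 against 102, 107 and 97.6 and the mediator Smad1 below it at 20.2, 31 and 25.8 against 15.4, 16.7 and 16.6. Wnt, arterial, caveolar, flow-responsive and immediate early genes had medians between -0.08 and 0.10. Without replicate 3 of the compound genotype, the arterial median was -0.35, with 17 of 20 below 0, the immediate early median was -0.25, and the Wnt median was 0.11. Without WT replicate 3 the arterial median was 0.083, the immediate early median was -0.15 and the flow-responsive median was -0.12.

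Markers of other brain cells were on the higher side in part. A marker at or near 0 in WT passed the filter only through the other genotypes, so its side was set beforehand. Gjb6, given below, is an example, and other low markers are of this kind. The counts and medians below therefore describe the members tested and are no support for a shift. Of 12 fibroblast markers 7 were tested, 6 of them above 0 with a median of 1.67. On the higher side 2 had an unadjusted p under 0.05 (2.97% of all genes) and 1 lay without overlap (6.05%). Col3a1, a fibrillar collagen, stood at 0.619, 0 and 0.15 CPM against 0.122, 3.9 and 2.79. Without replicate 3 of the compound genotype the fibroblast median was 1.03 over 8 tested, with 0 at such a p on the higher side. The fibroblast sum overlapped at 630, 157 and 577 against 146, 192 and 504 CPM (exact permutation p = 0.3), most of it Mgp, a matrix protein. Cx3cr1, the fractalkine receptor of microglia, stood at 0.354, 0.659 and 0.3 CPM against 4.02, 3.79 and 1.01, without overlap (2.74 ± 0.84 SE, FDR 0.596), while the summed microglial level overlapped at 71.5, 121 and 58.5 CPM against 82.8, 105 and 81.9. The astrocyte sum overlapped at 1097, 962 and 948 CPM against 736, 787 and 1014 (exact permutation p = 0.3). Most of that sum was Apoe, whose levels are given above with the clearance genes. Of 11 astrocyte markers tested 7 were above 0 with a median of 0.78. On the higher side 3 had an unadjusted p under 0.05 (2.97% of all genes) and 1 lay without overlap (6.05%). Without replicate 3 of the compound genotype that median was 0.13 over 13 tested, and the defining markers Aldh1l1, Aqp4 and S100b had too few counts for the test with all libraries. Gjb6, a connexin, had 0 counts in WT and stood at 0, 0.319 and 0.576 CPM in the compound genotype, at least 3.87-fold higher by the mean floor though its libraries overlapped at 0. Of 10 oligodendrocyte markers tested 7 were above 0 with a median of 0.54. On the higher side 0 had an unadjusted p under 0.05, and on the lower side 1 (3.21% of all genes). Without replicate 3 of the compound genotype the median was 0.17 over 11 tested. The oligodendrocyte sum lay below WT instead, at 751, 590 and 652 against 427, 427 and 534 CPM (exact permutation p = 0.1). Nearly all of this sum was Mal, a proteolipid of membrane sorting that was abundant in these sorted cells, at 720.1, 549 and 621 against 392, 393 and 500.1 CPM.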

How the data were processed

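RNA of sorted brain endothelial cells was sequenced in 9 libraries, 3 per genotype, as paired reads. Per the submitters' processing notes, the authors used Bowtie 0.12.2, RSEM and edgeR 3.10.2, and the genome build was mm10. The values analysed are the expected counts per gene that the authors deposited in 1 matrix. RSEM divides reads of similar genes by estimate, and 28.3% of the values were not whole, so they were rounded. Neither strand nor molecular identifiers were recorded, so overlapping genes cannot be separated and amplified copies count more than once.

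Groups came from the labels. Genes were filtered with filterByExpr at its default minimums, scaled by TMM and fitted with the robust quasi-likelihood test of edgeR 4.0.16 (R 4.3.3) on all 9 libraries with genotype as the factor, which pools the spread. The contrast was the compound genotype minus WT, 2-sided, with Benjamini-Hochberg FDR over all genes tested. Every FDR, and every unadjusted p beside a single gene or list, is from this test unless DESeq2 (1.42.0) is named. CPM are the rounded counts divided by the TMM-scaled library size. Summed marker levels and the Rn45s share were compared with exact permutation tests. Coordinates are those of GENCODE M21, by symbol for 21737 of 23420 genes, and promoters are those of RefSeq. The edgeR test was also run on simulated counts with planted changes, drawn with the spread fitted to these libraries. That run does not bear on whether the calls reported here hold.

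Named genes are those past the FDR threshold, the genes of at least 5 CPM with the smallest p among those without overlap, at most 2 members of each list in each direction, and a set around Ripk1, App and the barrier. The other list members given as examples, and the neighbours of 2610035D17Rik, were chosen after their values were seen. The genes, the 41 lists and the comparison were chosen with earlier results of these data known. 1 called gene and some other named genes are not reported here. The deposited table of APP_PS1 against WT was not used.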

Additional observations from a re-analysis of the deposited data

How the results depend on the processing

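The number of called genes depended on the test. On the higher side, 2 genes in edgeR's quasi-likelihood test, the count was 29 with DESeq2, 15 with edgeR's exact test, 0 with limma-voom and 5 with upper-quartile scaling, with no filter on low counts or with a minimum of 1 CPM in 3 libraries. On the lower side, 3 genes, it was 33 with DESeq2, 17 with the exact test, 9 with no filter, 1 with only the 6 libraries of the comparison and 5 in the libraries with Xist. Leaving out 1 library at a time gave 0 to 4 higher and 1 to 5 lower. With the replicate number as a block it was 0 higher and 0 lower, with FDRs of 0.0655 for Tmem252, 2610035D17Rik and Kbtbd11 and 0.0708 for Atp13a5. With sex-linked genes left out, same-numbered libraries did not deviate together (correlations across genes of -0.0247, 0.0118 and 0.0656), and the numbers are not treated as pairs. These correlations cannot exclude that same-numbered libraries were matched, since replicate 3 of each genotype carried Y-linked transcripts. The loss of all calls with the block therefore stands as a limit. With the 6 libraries alone the FDR was 0.0623 for 2610035D17Rik and Kbtbd11 and 0.0975 for Atp13a5, and with limma-voom it was 0.612 for 2610035D17Rik and 0.508 for Atp13a5. In the libraries with Xist it was 0.171 for Kbtbd11 and 0.19 for Atp13a5. Fold changes that turned sign were all of genes not called. When 1 library at a time was left out, Zbp1 ranged from -2.17 to 0.060, Mlkl from -0.23 to 0.24, Ripk3 from -0.15 to 0.47, Nat1 from -2.65 to 0.12 and Xist from -0.27 to 1.04, and Zbp1 came to 0.23 in the libraries with Xist. The cause of these shifts was not tested. Of 420 list medians recomputed, 348 moved by no more than the SD of that list's median over the 3 compound libraries. This criterion is wide where those libraries differ, and it does not record changes of sign. A fit with a sex term and without the 5 sex-linked genes, and the list counts without replicate 3 of either genotype, were added after seeing the data. Low transcripts such as Nat1, Kcnj8 and Cx3cr1 are limited by depth.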
